A study of Mus musculus with 8 samples.

Results

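The transcription factors of T cell exhaustion and memory examined were Tox, Tox2, Tcf7, Nr4a1, Nr4a2, Nr4a3, Eomes, Tbx21, Prdm1 and Id2, 10 genes taken by name from the 33696 genes measured, with no threshold on their values, though with earlier results of these data known. They were followed through lymphocytes of mouse brains bearing ependymoma driven by the ZFTA-RELA fusion (EPZFTA-RELA; genotype NestinCreERT2;Fus1;RFPTdT). Tumor-bearing mice were randomized when 3 weeks old, given a single intrathecal dose of mavrilimumab, an antibody against the GM-CSF receptor alpha chain (5 mg/kg), or a control antibody (Vehicle IgG), and taken at a humane endpoint, with samples described as coming from mice of 6 to 8 weeks. The study describes the sequenced cells as taken at recurrence. The time from dose to collection is not given by library, so relapse and time since dosing cannot be told apart from treatment. Dissociated tissue was stained for CD45 and Ter119 and sorted, and droplet 5′ single-cell RNA-seq gave 4 expression libraries, 2 per treatment, with T cell receptor (TCR) libraries beside them, of which 3 were analyzed. All libraries carry the tumor genotype, in which Nestin-driven Cre acts in neural progenitors, and no tumor-free brain was compared. Tumors were pooled, according to the study. A library is therefore not a single animal, and no p-value measures the spread between mice. For treatment, p-values rest on the spread between libraries, estimated in part or wholly by pooling over genes. In comparisons within libraries, they rest on the spread left once each library's own level is removed.

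When T cells meet antigen for weeks, as in tumors, they keep inhibitory receptors such as PD-1 (encoded by Pdcd1) and lose cytokine output, a state called exhaustion. Tox, helped by Tox2, installs and maintains that program downstream of calcium and NFAT signaling, and the 3 Nr4a nuclear receptors are induced within hours of TCR signaling and act in the same program. Tcf7 (TCF-1) marks naive, memory and progenitor-exhausted cells, whereas Tbx21 (T-bet), Eomes, Prdm1 (Blimp-1) and Id2 drive effector, cytotoxic and terminal states, and Eomes, Tbx21 and Id2 are also needed by natural killer (NK) cells.

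The Nr4a genes are the members known for rapid induction, and their promoters are shown because the letters of the cyclic AMP response element, TGACGTCA, are a well-known feature of such genes. In the RefSeq promoter table (GRCm38.p6), 9 of the 10 members had an entry. The 250 bases upstream of each start are printed 5′ to 3′ on the gene's strand, with capitals on each TGACG or CGTCA, the same 5-letter motif on either strand. Nr4a1 lies at chr15:101266596-101266845 (+), Nr4a2 at chr2:57124004-57124253 (-) and Nr4a3 at chr4:48045055-48045304 (+).
Nr4a1: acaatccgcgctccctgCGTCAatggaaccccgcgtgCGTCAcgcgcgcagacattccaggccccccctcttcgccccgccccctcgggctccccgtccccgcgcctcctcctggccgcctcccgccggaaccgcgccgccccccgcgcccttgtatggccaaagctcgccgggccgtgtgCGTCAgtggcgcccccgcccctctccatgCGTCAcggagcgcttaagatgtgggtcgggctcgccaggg
Nr4a2: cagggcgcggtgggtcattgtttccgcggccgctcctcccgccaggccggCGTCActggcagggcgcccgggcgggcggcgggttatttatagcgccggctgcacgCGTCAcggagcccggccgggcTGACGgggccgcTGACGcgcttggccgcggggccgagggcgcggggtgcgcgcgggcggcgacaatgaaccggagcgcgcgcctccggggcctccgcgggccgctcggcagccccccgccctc
Nr4a3: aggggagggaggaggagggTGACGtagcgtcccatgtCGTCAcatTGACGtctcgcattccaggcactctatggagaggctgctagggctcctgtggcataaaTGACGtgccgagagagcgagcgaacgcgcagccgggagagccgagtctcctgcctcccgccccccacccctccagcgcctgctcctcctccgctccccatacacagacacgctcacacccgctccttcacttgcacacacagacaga
Each of the 3 windows held 4 matches, a number reached by 45 of 32851 promoters (0.137%), while 17.8% held at least 1. Of the other members, Prdm1 and 1 of the 5 Tox2 starts held 1 match and Tcf7, Eomes, Tbx21 and Id2 none. The joined element TGACGTCA was in no member's window and in 1.55% of all promoters. The motif was chosen with the genes in view, and a match is a run of letters, not a shown binding site.

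Libraries held 24354457 to 148657643 unique molecular identifiers (UMIs, counted RNA molecules) and 984 to 26746 cells after quality filters. Of the 26746 cells of vehicle 2, 13254 met a neural gate (Sox2, Ptprz1 or Mdk, with no UMI of Cd3e or of Ptprc, the CD45 gene). That gate held 4 cells in vehicle 1, 7 in mavrilimumab 1 and 422 in mavrilimumab 2, so the libraries were not alike in content. Lymphocytes were gated by UMIs of a few genes: CD8 T cells (Cd3e with Cd8a or Cd8b1) with a Pdcd1 UMI (1549 cells) or without (4139), Treg cells (Cd3e and Foxp3; 976), other CD4 T cells (Cd3e and Cd4 without Foxp3 or Cd8; 1898) and NK cells (Ncr1 or Klrb1c without Cd3e; 853). UMIs of a gate were summed per library, and levels are CPM, a gene's UMIs per 1000000 UMIs of the sum. Vehicle library 1 had 16, 15 and 5 cells in the Pdcd1+ CD8, Treg and NK gates, under the 20 required. Only its Pdcd1- CD8 and other CD4 sums enter the fits, among them the joint fit behind all gate comparisons. Levels below are given in the order vehicle 1, vehicle 2, mavrilimumab 1 and mavrilimumab 2. Median UMIs per cell over the lymphoid gates ran from 11383 to 14807.5, 2018.5 to 2928, 3408.5 to 4801 and 7657 to 14772, so a cell without a Pdcd1 UMI is least informative in vehicle 2.

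The labels of treatment went against the files in 1 respect. In 3 of 3 TCR files the sample name inside the file names the other treatment. Of 193 TCR barcodes labelled vehicle 1, 182 are cells of expression library vehicle 1. Of 2749 labelled mavrilimumab 1, 2491 are cells of expression library mavrilimumab 2, and of 5659 labelled mavrilimumab 2, 4867 are cells of mavrilimumab 1. By barcodes, each TCR library thus met an expression library labelled with the same treatment, with numbers exchanged within mavrilimumab. Kept expression libraries shared 0 to 60 barcodes pairwise. The treatment of each expression library is taken here from its label and was not verified. Comparisons made inside a library do not depend on that label and come first.

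The markers, some of them genes of the gates, followed the gates. The 7 T cell markers summed to 1765 to 3952 CPM in the T cell sums tested and 276 to 848 in NK sums, and the 8 NK markers to 6213 to 9383 in NK sums and 45.2 to 925 in T cell sums. The 5 Treg markers, Foxp3 of the gate included, reached 2834 to 3874 in Treg sums against 198 to 992 in the other gates, although only 7 of 28 Treg-gated cells of vehicle 2 had a Cd4 UMI. RNA of other cells was present throughout: 8 microglial markers summed to 353 to 3308, and 7 neural or tumor markers to 668 to 1069 in vehicle 2 sums. Its part in the results was not tested. A subtraction of it took 0 to 34.6% of a sum and was uneven, for in vehicle 2 it took 34.6% from the Treg sum and 0% from the other CD4 sum, which held the 1069.

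**Figure D1:**
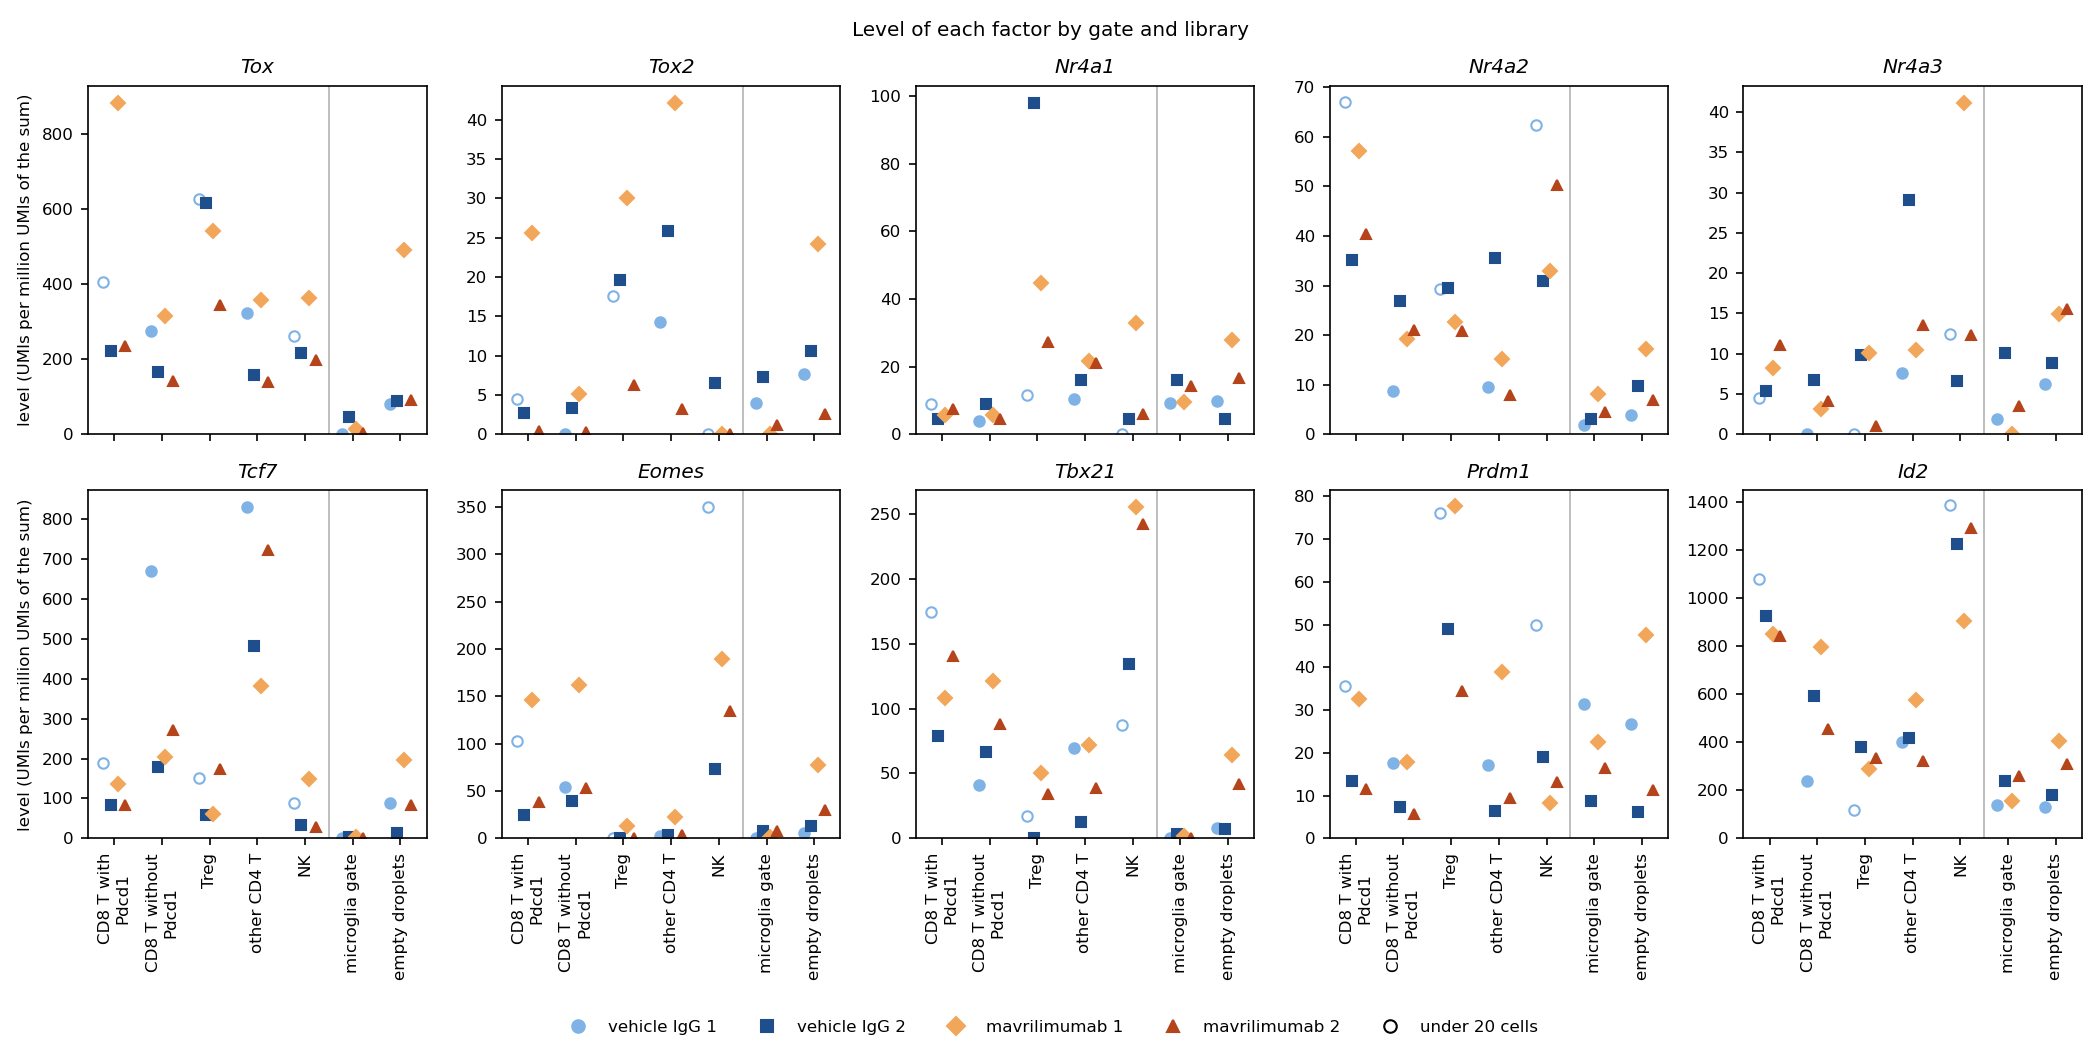
Level of each of the 10 factors (CPM, linear axis) by gate and library, with microglia and empty droplets as reference. Hollow points mark sums of under 20 cells. Tcf7 is highest in other CD4 T cells of every library, and Tox in Treg cells of vehicle 1, vehicle 2 and mavrilimumab 2 but in Pdcd1+ CD8 T cells of mavrilimumab 1.

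The first question was how the factors differ between CD8 T cells with and without Pdcd1 RNA, the PD-1 gene that marks antigen-experienced and exhausted cells. Tox, Nr4a2, Prdm1 and Id2 were higher and Tcf7 lower in Pdcd1+ cells of all 4 libraries. How many of all genes held a direction in all 4 was not counted. None of the 10 factors passed the test across all genes. In that comparison 0.21% of 13348 genes passed (edgeR quasi-likelihood test, Benjamini-Hochberg adjusted p under 0.05), so few genes of any kind did. At an unadjusted p under 0.05 there were 6 of the 10 factors and 999 genes, and DESeq2 called 41 genes and 0 factors. Without a filter on low counts Tox, Nr4a2 and Tcf7 were called (193 genes in all). With cells holding at least 2 UMIs of a marker list of another lineage removed, Nr4a2 was called at 1.95 and Tcf7 at -1.07. That removal left 0, 87, 105 and 16 Pdcd1+ cells, so that only vehicle 2 and mavrilimumab 1 had 20 of them.

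Tox, the exhaustion-program factor, measured 407, 221, 885 and 235 CPM in Pdcd1+ cells. In Pdcd1- cells it measured 275, 165, 316 and 141. The pair differs in the same direction in each library and most in mavrilimumab 1, while the 2 sets of levels overlap across libraries. The log2 fold change was 0.93 ± 0.21 (SE; adjusted p = 0.108). In empty droplets of mavrilimumab 1 Tox was at 491, above its Pdcd1- CD8 level in that library, and in the other libraries at 80.9 to 91.3.

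Nr4a2 stood at 67.0, 35.1, 57.3 and 40.4 in Pdcd1+ cells against 8.76, 27.0, 19.2 and 21.0 in Pdcd1- cells. Here the groups did not overlap, with a log2 fold change of 0.99 ± 0.26 (adjusted p = 0.200). With gates set on cells thinned to 1000 UMIs, Nr4a2 was at 1.77 (adjusted p = 0.00543) and was the 1 gene called. Of its relatives, Nr4a3 was higher in Pdcd1+ cells of 3 of 4 libraries, at 4.47, 5.40, 8.25 and 11.0 against 0, 6.69, 3.18 and 4.09 (0.99 ± 0.53; adjusted p = 0.738), and Nr4a1 changed by 0.06 ± 0.38. Tox2, the Tox paralog, was scarce outside mavrilimumab 1, where it had 25.5 against 5.09 CPM, and its fitted change was 1.61 ± 0.57 (adjusted p = 0.433).

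Tcf7 ran the other way. It had 188, 83.7, 137 and 83.7 CPM in Pdcd1+ cells and 671, 179.9, 203 and 273 in Pdcd1- cells. The sides overlapped only where vehicle 1, at 188, met vehicle 2, at 179.9. The log2 change was -1.24 ± 0.35 (adjusted p = 0.247). After thinning each cell to 1000 UMIs, Tcf7 was detected in 6.25, 7.31, 11.0 and 7.46% of Pdcd1+ cells and 27.8, 18.7, 18.8 and 26.8% of Pdcd1- cells. Microglia, which lack this factor, gave 0 to 0.474% at the same depth. Without thinning the shares were 62.5, 18.9, 36.5 and 47.2% against 90.7, 36.2, 51.4 and 66.3%.

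Among the effector factors, Prdm1 had 35.7, 13.5, 32.5 and 11.7 CPM in Pdcd1+ cells. In Pdcd1- cells it had 17.5, 7.28, 18.0 and 5.78, a log2 change of 0.81 ± 0.24 (adjusted p = 0.297). Id2, an inhibitor of E proteins, measured 1081, 925, 853 and 842 against 240.3, 591, 798 and 456 (0.61 ± 0.23; adjusted p = 0.497). Id2 levels of Pdcd1+ cells all lay above those of Pdcd1- cells, by little in mavrilimumab 1. Tbx21 changed by 0.34 ± 0.26 and Eomes by -0.45 ± 0.25, and Eomes was lower in Pdcd1+ cells in 3 of 4 libraries. The 10 factors had a median log2 change of 0.71, beside -0.0029 over all genes.

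Of 62 listed genes that commonly travel with these factors, 3 were called in this comparison (4.84%), beside 0.21% of all genes. The lists were chosen with earlier results of these data known. In the Treg, NK, other CD4, Tcf7 and clone comparisons below, list shares were 19.4, 51.6, 40.3, 34.5 and 14.8%. The shares of all genes there were 2.95, 13.8, 8.74, 1.71 and 0.461%. Of 10 inhibitory receptor and ligand genes, only Cd200r1, an inhibitory receptor of the CD200 pathway, was called (1.57 ± 0.28; adjusted p = 0.0352). Of 10 memory and naive-type factors, Lef1, the Tcf7 relative, fell by 2.06 on the log2 scale (adjusted p = 0.0419) and Satb1, a chromatin organizer of naive cells, fell by 1.85 (adjusted p = 0.0442). No gene was called of the 10 effector and activation factors, 8 memory surface genes, 8 cytotoxic and cytokine genes, 10 immediate early genes or 6 cycling genes.

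**Figure D2:**
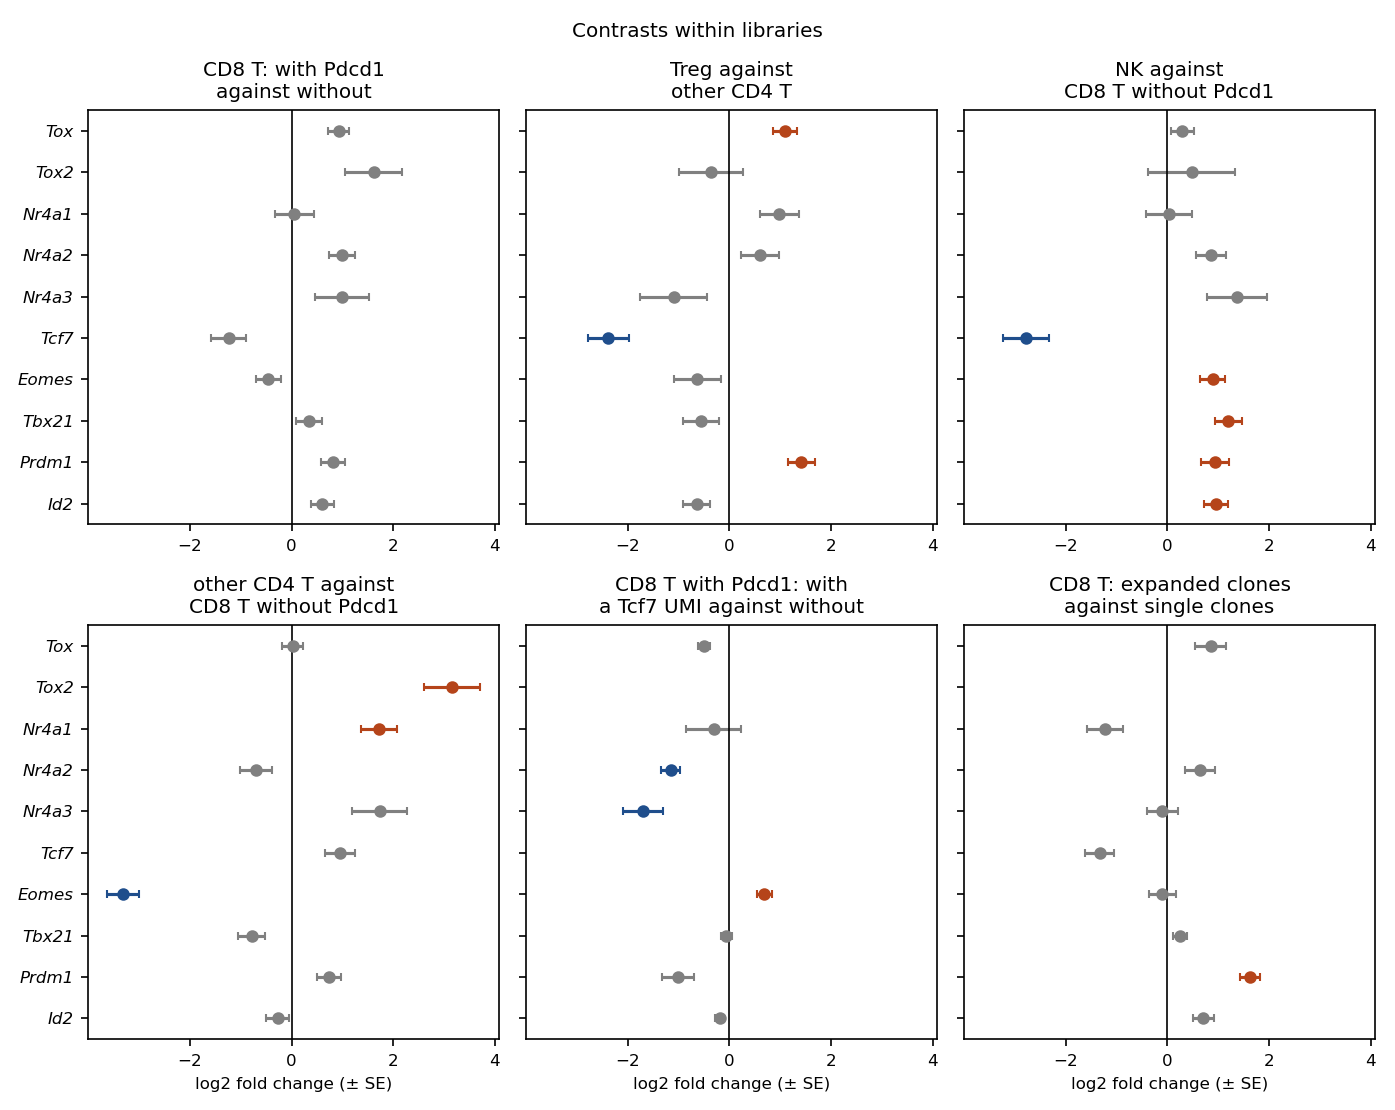
Log2 fold change (points, with bars of 1 SE) of each factor in the 6 comparisons made within libraries, red for called higher, blue for called lower and gray for not called. Tcf7 is lower in Treg and NK cells, Eomes is lower in other CD4 T cells, and no factor is called between Pdcd1+ and Pdcd1- CD8 T cells.

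Treg cells, the suppressive Foxp3 lineage, were then compared with other CD4 T cells. Tox and Prdm1 were higher and Tcf7 lower in Treg cells, 3 of 10 factors, where 2.95% of all genes were called. These 3 held their direction in 4 of 4 libraries, as did Nr4a1, Nr4a3, Eomes and Tbx21, which were not called. How many of all genes did so was not counted. Vehicle 2 contributes 28 Treg cells and mavrilimumab 1 contributes 832.

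Tcf7 measured 152, 58.8, 60.1 and 174 CPM in Treg cells and 831, 481, 382 and 723 in other CD4 T cells. The ranges lie far apart, and the level was 5.22-fold lower in Treg cells (log2 change -2.38 ± 0.40; adjusted p = 0.00428). Without vehicle 2 the adjusted p was 0.0636, at -2.27, and with RNA of empty droplets subtracted it was 0.195, at a log2 change of -2.92. Other CD4 T cells had the highest Tcf7 of all gates in each library, and relative to Pdcd1- CD8 T cells their log2 difference was 0.95 ± 0.30 (adjusted p = 0.0628). That difference was called in 7 other ways of processing, at 0.89 to 1.27, among them without mavrilimumab 1 (adjusted p = 0.0436), with only the 2 gates fitted (0.0130), with mixed-lineage cells removed (0.00496) and with gates set on thinned cells (0.0105).

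Tox had 627, 618, 543 and 345 CPM in Treg cells against 323, 158, 358 and 139 in other CD4 T cells. Treg levels exceeded their library partner throughout, while mavrilimumab 2 Treg cells lay below other CD4 T cells of mavrilimumab 1. The difference was 2.12-fold (1.09 ± 0.24; adjusted p = 0.0208), and its adjusted p was 0.0905 without vehicle 2, 0.160 without mavrilimumab 2 and 0.141 with gates set on thinned cells, at differences of 0.88, 1.03 and 1.09. Prdm1 stood at 76.2, 49.0, 77.9 and 34.5 in Treg cells and 17.2, 6.46, 38.9 and 9.46 in other CD4 T cells. The pair of vehicle 2 rests on 5 and 2 UMIs. It was 2.67-fold higher (1.42 ± 0.27; adjusted p = 0.0107; 0.0913, at 1.24, without mavrilimumab 2). Removing cells with RNA of other lineages left 12, 301 and 6 Treg cells in vehicle 2, mavrilimumab 1 and mavrilimumab 2, so that 1 library remained for Treg cells, and the Tox difference was then 0.28 (adjusted p = 1.00) and that of Prdm1 1.12 (adjusted p = 0.207).

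The remaining 7 factors were not called between Treg and other CD4 T cells. Nr4a1, the earliest TCR-responsive member, had 11.7, 98.1, 44.6 and 27.2 CPM in Treg cells and 10.5, 16.2, 21.7 and 21.1 in other CD4 T cells (0.98 ± 0.39; adjusted p = 0.231). The value of 98.1 rests on 10 UMIs, with an exact 95% Poisson interval of 47.0 to 180.3 that covers counting error only. Nr4a1 is sensitive to handling of tissue, and 10 immediate early and stress genes summed to 1265 to 3893 in Treg sums and 1216 to 2756 in other CD4 sums; their part in the Nr4a values was not tested. Eomes was detected in Treg cells of mavrilimumab 1 alone (13.6), where 65 of 832 Treg cells also met the rule of another gate. Its log2 change was -0.63 ± 0.46, but it was called lower in Treg cells with such cells left out (-3.01; adjusted p = 0.0102) and with RNA of empty droplets subtracted (adjusted p = 0.0270). Tbx21 stood at 17.6, 0, 50.2 and 34.5 (-0.56 ± 0.36). Nr4a2, Nr4a3 and Tox2 differed by 0.60 ± 0.38, -1.10 ± 0.66 and -0.36 ± 0.63. Id2 had 117, 382, 291 and 337 in Treg cells against 399.7, 420.0, 577 and 323, lower in 3 of 4 libraries (-0.64 ± 0.27; adjusted p = 0.261), and was called without a filter on low counts (adjusted p = 0.0422).

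Of the 10 inhibitory receptor and ligand genes, 4 were called higher in Treg cells and 0 lower, with Ctla4 at 2.15 ± 0.27, Cd200r1 at 1.75 ± 0.33, Cd38 at 1.46 ± 0.28 and Tigit at 1.57 ± 0.34 (log2). Ctla4 is also a Treg marker. Of the memory-type factors Klf2, which controls lymphocyte egress, fell by 1.23, and of the memory surface genes Slamf6 fell by 1.32. Ikzf2 (Helios), a Treg factor, rose by 2.69 ± 0.39. Among the 8 cytotoxic and cytokine genes Gzmb was higher (1.92 ± 0.49) and Gzmk and Ifng fell by 1.87 and 1.74. Dusp1 and Jun were the called immediate early genes (0.76 and 0.60), and no cycling gene was called.

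**Figure D3:**
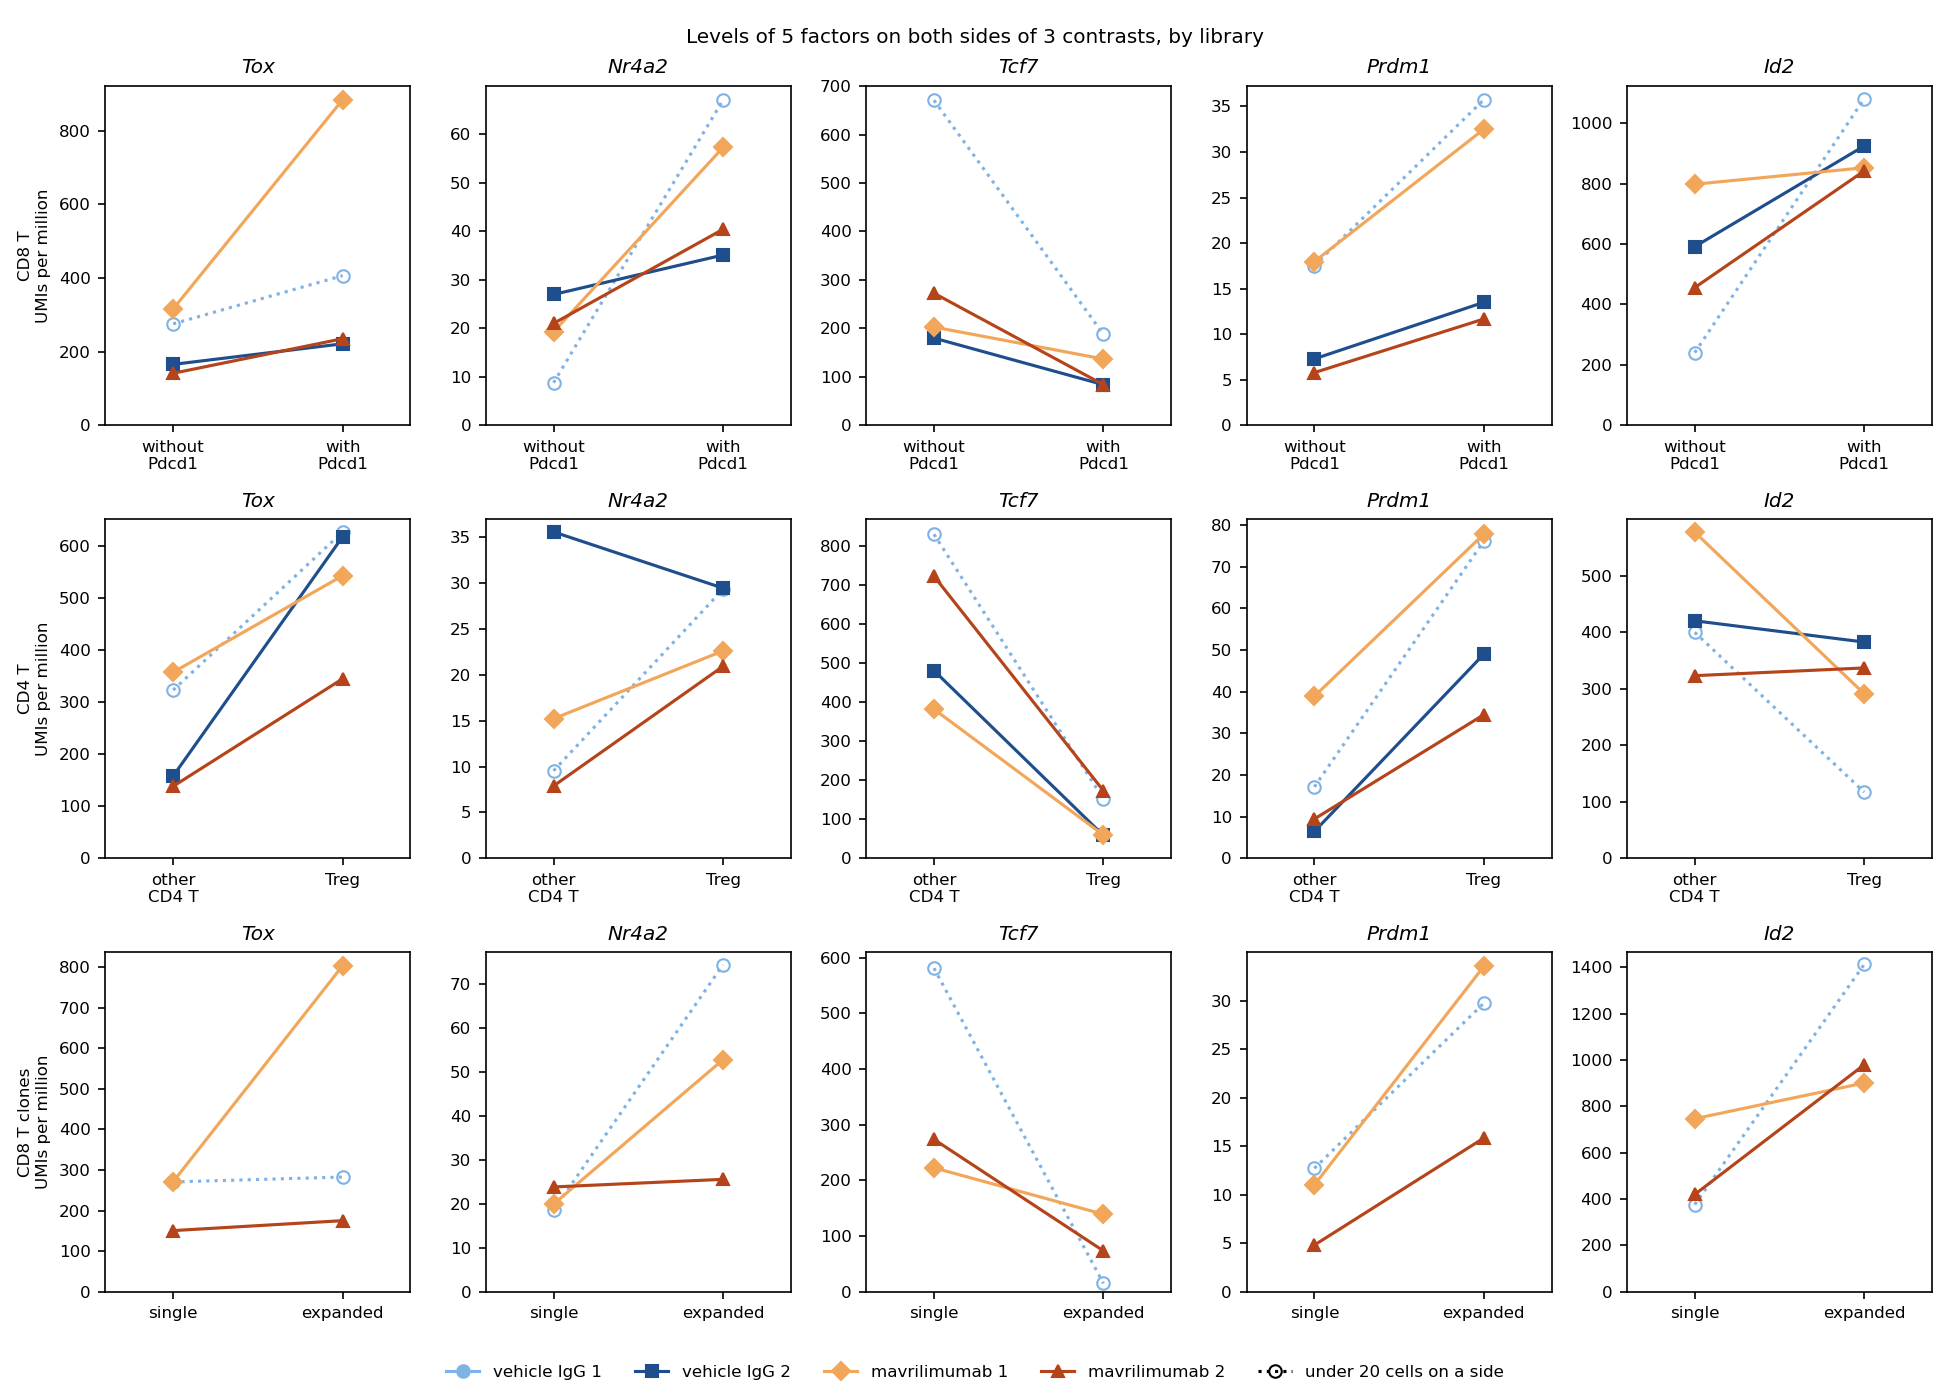
Levels (CPM, linear axis) of Tox, Nr4a2, Tcf7, Prdm1 and Id2 on both sides of 3 comparisons. Each library has a line, dotted where a side has under 20 cells. Tcf7 is lower and Prdm1 higher in Pdcd1+, Treg and expanded-clone cells of every library drawn.

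NK cells have no rearranged TCR and provide a comparison for the factors shared by cytotoxic lineages. Against Pdcd1- CD8 T cells 5 of 10 factors were called, where 13.8% of all genes were called. Tbx21, Id2, Eomes and Prdm1 were higher and Tcf7 was lower in NK cells. NK sums held 5, 452, 20 and 376 cells, so the fit rests mostly on vehicle 2 and mavrilimumab 2.

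Tcf7 had 87.5, 34.1, 148 and 29.6 CPM in NK cells, beside the 671, 179.9, 203 and 273 of Pdcd1- CD8 T cells. The groups did not overlap, and NK levels were 6.91-fold lower (-2.79 ± 0.45; adjusted p = 5.36e-04), with an adjusted p of 0.149 once RNA of empty droplets was subtracted (-2.56). Tbx21 measured 87.5, 135, 255 and 242 in NK cells against 41.3, 66.3, 121 and 88.3. It was 2.30-fold higher (1.20 ± 0.27; adjusted p = 0.00674), and its adjusted p was 0.123 without mavrilimumab 2, at 1.02.

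Eomes had 350.0, 72.8, 189.5 and 135 CPM in NK cells and 53.8, 39.8, 162 and 53.0 in Pdcd1- CD8 T cells. The 2 cell types were close in mavrilimumab 1, whose NK sum holds 20 cells. The log2 difference was 0.89 ± 0.25 (adjusted p = 0.0261), and it was 0.50 without mavrilimumab 2 (adjusted p = 0.444) and 0.95 without vehicle 2 (adjusted p = 0.0996). Id2 had 1388, 1229, 906 and 1294 in NK cells, above every Pdcd1- CD8 level (0.95 ± 0.24; adjusted p = 0.0128), and without vehicle 2 or mavrilimumab 2 its adjusted p was 0.100 or 0.211, at 0.93 or 0.66, and with gates set on thinned cells 0.0918, at 0.54. Prdm1 was higher in NK cells of 3 of 4 libraries (0.94 ± 0.28; adjusted p = 0.0360) and lower in mavrilimumab 1, where 1 UMI was counted. The Prdm1 call was made in 7 of 16 other ways of processing, whose log2 differences ran from 0.24 to 1.18. Leaving out vehicle 2 or mavrilimumab 2 gave it an adjusted p of 0.180 or 0.459, DESeq2 0.0657, only the 2 gates 0.173, a minimum of 2000 UMIs 0.0822, removal of mixed-lineage cells 0.447 and gates on thinned cells 0.187. With RNA of empty droplets subtracted the calls of Id2 and Prdm1 were lost (adjusted p = 0.0783 and 0.0568) at differences of 0.96 and 1.18, no smaller than without it. The Eomes call was lost with DESeq2 (0.81; adjusted p = 0.269).

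Nr4a2 stood at 62.5, 30.8, 33.0 and 50.2 CPM in NK cells, above the paired Pdcd1- CD8 level in each library (0.86 ± 0.29; adjusted p = 0.0629), and it was called without vehicle 2 (1.25; adjusted p = 0.0114), without a filter on low counts (0.0214) and with gates set on thinned cells (0.0371). Nr4a3 had 12.5, 6.56, 41.2 and 12.3, the 41.2 from 5 UMIs (1.36 ± 0.59; adjusted p = 0.157). Tox differed by 0.29 ± 0.22 and Nr4a1 by 0.03 ± 0.46, and Tox2, which had UMIs in NK cells of vehicle 2 alone, by 0.48 ± 0.85. Around these factors 6 of 8 memory surface genes were lower in NK cells, led by Cd28 (-2.47), Slamf6 (-5.15), Ccr7 (-4.86) and S1pr1 (-2.97), while Xcl1 was higher. Among the 10 memory and naive-type factors 4 were lower, Id3 (-2.89), Foxo1 (-1.43), Lef1 (-2.81) and Klf2 (-1.04), and none was higher. Of 10 effector factors 4 were higher and 1 lower; Zeb2 (1.64), Nfil3 (2.16) and Bhlhe40 (1.89) rose and Irf4 fell by 2.58. Of 10 inhibitory receptors 4 were higher and 2 lower, with Cd244a at 2.41, Tigit at 1.44, Cd200r1 at 1.33 and Cxcr6 at -1.19. Prf1 and Gzma were higher (2.56 and 4.12) and Gzmk lower (-4.73), and 6 of 10 immediate early genes were higher, with Jun at 0.84, Fosb at 1.07, Egr1 at 0.95 and Ier2 at 0.48, and Birc5, a cycling gene, was lower (-1.38).

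Between the 2 non-Treg T cell lineages, 3 of 10 factors differed, where 8.74% of all genes were called. Other CD4 T cells had less Eomes and more Tox2 and Nr4a1 than Pdcd1- CD8 T cells, in 4 of 4 libraries each. Eomes, a CD8 and NK factor, measured 2.86, 3.23, 22.3 and 3.16 CPM in CD4 T cells against 53.8, 39.8, 162 and 53.0. Its level was 9.97-fold lower (-3.32 ± 0.31; adjusted p = 5.39e-06), and the 22.3 of mavrilimumab 1 stands beside 77.5 in the empty droplets of that library.

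Tox2 had 14.3, 25.8, 42.2 and 3.16 CPM in CD4 T cells and 0, 3.35, 5.09 and 0.218 in Pdcd1- CD8 T cells. It was 8.91-fold higher (3.16 ± 0.55; adjusted p = 0.00190), and mavrilimumab 2 was low on both sides. Without cells that held RNA of other lineages the difference was 1.83 (adjusted p = 0.140). Nr4a1 had 10.5, 16.2, 21.7 and 21.1 against 3.76, 9.05, 5.56 and 4.58, with no overlap. It was 3.29-fold higher (1.72 ± 0.36; adjusted p = 0.00701), and the adjusted p was 0.101 without mavrilimumab 1, 0.0652 without mavrilimumab 2 and 0.0800 with RNA of empty droplets subtracted or gates set on thinned cells, at differences of 1.59, 1.48, 2.11 and 2.07. Immediate early genes moved with it, 3 of 10 higher and 0 lower, Dusp1 by 1.31, Junb by 0.98 and Fos by 0.97, and their part in the Nr4a1 value was not tested.

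Nr4a3 was higher in CD4 T cells of each library, at 7.63, 29.1, 10.5 and 13.6 against 0, 6.69, 3.18 and 4.09, without a call (1.73 ± 0.54; adjusted p = 0.0597); it was called by DESeq2, without a filter on low counts, with sums of at least 10 cells and with only the 2 gates fitted (adjusted p = 0.0352, 0.00948, 0.0454 and 0.0125). Tox itself was level between the lineages, with a log2 difference of 0.02 ± 0.20. Tbx21 differed by -0.79 ± 0.27, Prdm1 by 0.74 ± 0.24, Nr4a2 by -0.70 ± 0.31 and Id2 by -0.27 ± 0.22, none of them called. Other ways of processing called 3 of these. Tbx21 was called without vehicle 1 (-1.13; adjusted p = 0.0106), without a filter on low counts (0.00418) and with gates set on thinned cells (0.00634). With those gates Id2 was at -1.41 (adjusted p = 7.95e-05), and with a mitochondrial limit of 5% Prdm1 was called (0.72; adjusted p = 0.0410). Cytotoxic genes were lower in CD4 T cells, 5 of 8, with Ccl5 at -2.28, Gzmb at -3.46, Nkg7 at -2.63 and Prf1 at -2.51. Memory surface genes were higher in 4 of 8 and lower in 1, with Cd28 at 1.21, Slamf6 at 1.55, Cxcr5 at 1.76 and Xcl1 at -3.72. Maf, a CD4 helper factor, was higher by 3.61, Batf by 0.76 and Irf4 by 1.47, and Runx3, which silences Cd4, was lower (-1.21). Klf2 and Bcl6 were the called memory-type factors (0.91 and 0.76). Of the inhibitory receptors 4 were lower and Ctla4 higher, with Cd160 at -4.08, Cd244a at -3.04, Ctla4 at 2.10 and Cd38 at -1.54, and Birc5 was lower (-1.32).

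Within Pdcd1+ CD8 T cells, cells with a Tcf7 UMI were next set beside cells without, the split used to describe progenitor-exhausted cells. Tcf7 chose the cells and is not a result. Cells with Tcf7 had less Nr4a2 and Nr4a3 and more Eomes, 3 of 8 factors tested, where 1.71% of all genes were called. The fit used vehicle 2 (57 cells with, 244 without), mavrilimumab 1 (259 and 450) and mavrilimumab 2 (247 and 276). Median UMIs per cell were 3205 against 2874.5, 5533 against 4423.5 and 14957 against 14373, so cells with Tcf7 were the deeper ones in each library fitted. In vehicle 1, not fitted, they were 13574 against 13636.5. This split has no fit with gates set on thinned cells or with mixed-lineage cells removed, so the part of depth was not tested.

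Nr4a2 had 20.9, 24.9 and 28.6 CPM in cells with Tcf7, in vehicle 2, mavrilimumab 1 and mavrilimumab 2. Cells without Tcf7 had 39.0, 79.1 and 51.7, and the sides did not overlap in these 3 libraries. Vehicle 1, not tested with 10 and 6 cells, ran the other way at 70.3 with Tcf7 and 61.3 without. The level was 2.23-fold lower with Tcf7 (-1.16 ± 0.19; adjusted p = 0.00457). Nr4a3 was 3.25-fold lower (-1.70 ± 0.39; adjusted p = 0.0440), from 1, 7 and 17 UMIs against 5, 25 and 73, while vehicle 1 had 1 UMI against 0. Without mavrilimumab 2 Nr4a3 was too low to be tested, and with a minimum of 2000 UMIs its adjusted p was 0.0564, at -1.70. Eomes went up, at 41.8, 171 and 51.4 with Tcf7 against 19.5, 129 and 26.4 without. Its log2 change was 0.69 ± 0.15 (adjusted p = 0.0303), with 0.51 without mavrilimumab 2 (adjusted p = 0.307) and 0.68 with RNA of empty droplets subtracted (adjusted p = 0.138).

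Tox had 155, 611 and 223 CPM with Tcf7 and 239.6, 1069 and 247 without, lower in 3 of 3 libraries (-0.50 ± 0.12; adjusted p = 0.0552). Prdm1 had 4.18, 12.8 and 10.8 with Tcf7 and 16.1, 45.8 and 12.5 without (-1.02 ± 0.32; adjusted p = 0.195), while vehicle 1 had 49.2 with and 12.3 without. Without mavrilimumab 2 both were called, Tox at -0.73 (adjusted p = 7.43e-05) and Prdm1 at -1.81 (adjusted p = 3.54e-04), and Tox was called with a mitochondrial limit of 5% (adjusted p = 0.0473), while with DESeq2, or with Pdcd1 of at least 2 UMIs, none of the factors was. Tbx21, Id2 and Nr4a1 changed by -0.06 ± 0.11, -0.20 ± 0.10 and -0.31 ± 0.54. Tox2 was too low to be tested.

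At 1000 UMIs per cell, Prdm1 was detected in few cells of either kind. None of 22, 78 and 39 Pdcd1+ cells with Tcf7 had a Prdm1 UMI. That allows shares of up to 13.6, 3.85 and 7.69% of cells with such a UMI at this depth and sets no limit on cells expressing the gene, and 0.292, 3.74 and 0.746 cells would have had both if the genes were detected independently. Of the cells without Tcf7, 1.43, 5.39 and 2.07% had it. In Pdcd1- CD8 T cells with Tcf7, 0 of 15, 0 of 275, 1 of 236 and 1 of 363 had Prdm1. Of the gene lists, Ccr7 (2.50), Il7r (1.56) and Slamf6 (1.37) were among the 6 of 7 memory surface genes tested that were higher, with 1 lower, and Klf2 (1.51), Lef1 (1.27) and Foxo1 (0.52) were the 3 of 9 memory-type factors called. On the other side 5 of 10 inhibitory receptors were lower with Tcf7, led by Cd244a (-1.71), Cd200r1 (-1.52), Tigit (-0.96) and Entpd1 (-0.83). Of 8 cytotoxic genes 4 were lower, Ccl5 (-0.52), Gzmb (-1.67), Gzma (-2.37) and Nkg7 (-0.40), as was Ikzf2 (-1.35), and no immediate early or cycling gene was called.

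T cells with the same rearranged TCR form a clone, and a clone of several cells has usually divided after meeting antigen. CD8 T cells of clones with at least 3 cells were set beside cells of clones seen once, in mavrilimumab 1 (810 and 673 cells) and mavrilimumab 2 (344 and 1131), the libraries to which TCR barcodes could be joined in number. Prdm1 was higher in expanded clones, 1 of 9 factors tested, where 0.461% of all genes were called. With 2 libraries the fit keeps 1 residual degree of freedom, and no library could be left out.

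Prdm1 had 33.5 and 15.8 CPM in expanded clones and 11.0 and 4.80 in single ones. It was 3.08-fold higher (1.62 ± 0.20; adjusted p = 0.0467), a call lost in 8 of 11 other ways of processing, at differences of 1.43 to 1.91 over the 11. Tcf7 had 139 and 73.2 against 223 and 274, lower in both libraries (-1.34 ± 0.28; adjusted p = 0.119; 0.0476 with cells of 2 gates left out). Id2 had 901 and 979.5 against 747 and 419.5 (0.71 ± 0.21; adjusted p = 0.222). Without a filter on low counts Tcf7, Id2 and Tox were called (adjusted p = 2.18e-05, 0.00231 and 0.00462). So was Tox2, which was not tested with the filter.

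Tox behaved differently in the 2 libraries, with 804 against 271 CPM in mavrilimumab 1 and 175 against 150.5 in mavrilimumab 2 (0.85 ± 0.30; adjusted p = 0.288). Nr4a1 was lower in expanded clones, at 2.98 and 3.76 against 9.43 and 6.74 (-1.23 ± 0.36; adjusted p = 0.211). Nr4a2, Tbx21, Nr4a3 and Eomes changed by 0.64 ± 0.30, 0.25 ± 0.14, -0.10 ± 0.31 and -0.10 ± 0.27, and Tox2 was too low to be tested. A Pdcd1 UMI was seen in 46.7 and 55.8% of expanded cells and 23.9 and 17.4% of single ones, at median depths of 4154 and 13853 UMIs against 5424 and 12415. In vehicle 1, where 5 expanded cells were not tested, Prdm1 was at 29.7 against 12.7 and Tcf7 at 14.9 against 581. Lag3 (1.61) was the 1 inhibitory receptor of 10 called, and Ccl5 (1.01), Gzmk (1.60), Gzma (0.79) and Ifng (0.95) were higher among 8 cytotoxic genes. Satb1 (-2.08), Foxp1 (-0.85) and Lef1 (-2.08) were lower among 10 memory-type factors and Ccr7 (-3.54) among 8 memory surface genes, and none was called of the effector, immediate early and cycling lists.

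Across the 17 library by gate sums with at least 20 cells, the genes most like each of 3 factors were listed by Pearson's r of log2 levels over 13348 genes, as a description. Sums of 1 library share its depth and RNA background. Tcf7 ran closest to Add3 (0.952), Scml4 (0.951), Gm45552 (0.951), Srpk1 (0.927) and Commd8 (0.917). For Eomes they were Cracr2a (0.902), Ube2g2 (0.900), St6galnac4 (0.892), Samd3 (0.889) and Ppp3cc (0.884), and for Tox Ankfy1 (0.870), AI987944 (0.862), Pvt1 (0.827), Tnip3 (0.821) and Acsl4 (0.817).

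Treatment was compared between libraries as labelled, so each direction would turn if the labels were exchanged. None of the 10 factors was called in any of the 5 gates. With 3 or 4 libraries to a fit and SEs of up to 2.84 on the log2 scale where the vehicle sums had UMIs, a factor without a call is not shown to be alike in the treatments. Of all genes, 0% were called in Pdcd1+ CD8 T cells, 0% in Pdcd1- CD8 T cells, 0.617% in Treg cells, 0% in other CD4 T cells and 10.6% in NK cells. At an unadjusted p under 0.05 the factors numbered 0, 1, 2, 0 and 2 in that order and all genes 1765, 566, 1155, 306 and 1839, and DESeq2 called 295, 30, 133, 13 and 206 genes. In Pdcd1+ CD8, Treg and NK cells vehicle 2 is the only vehicle library with 20 cells, and it is assumed to vary like the mavrilimumab libraries. In NK cells the p-values rest on a spread pooled over genes, with no weight on a gene's own spread between libraries. Vehicle 2 is also the library with the neural RNA and with most of the neural-gated cells, so treatment and library cannot be told apart there. Nearly all genes called in Treg and NK cells were lower in mavrilimumab libraries, and so higher in vehicle 2.

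**Figure D4:**
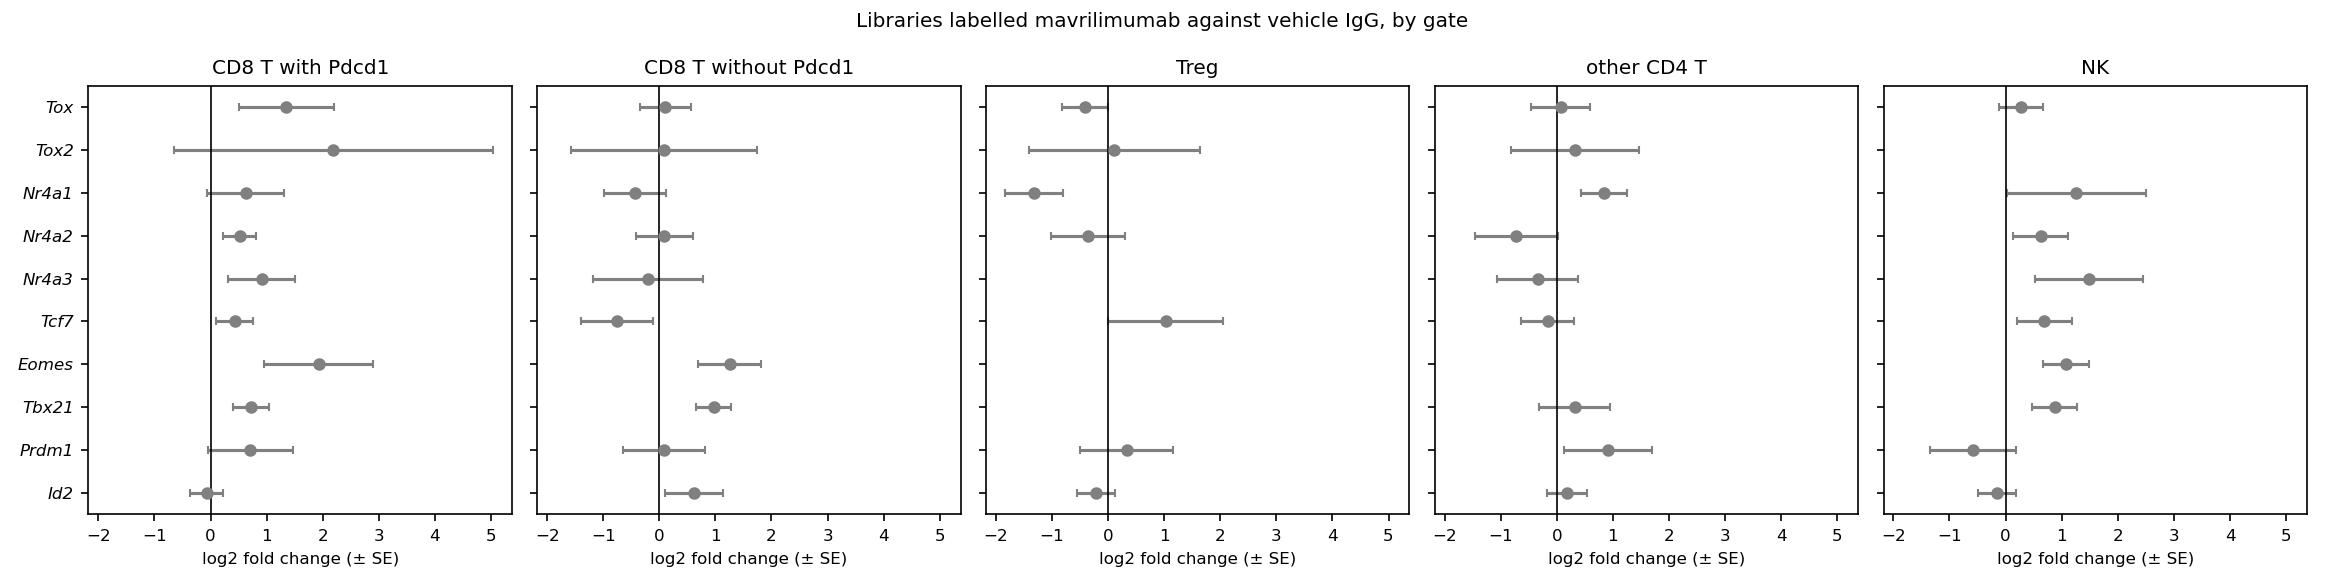
Log2 fold change (points, bars of 1 SE) of each factor in mavrilimumab against vehicle IgG libraries, by gate and as labelled. All points are gray, meaning not called, and Eomes and Tbx21 in Treg cells are left out since the vehicle library had no UMI.

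Tbx21 and Eomes gave the lowest unadjusted p-values of the factors in CD8 T and NK cells. In Pdcd1- CD8 T cells Tbx21 had 41.3 and 66.3 CPM in vehicle and 121 and 88.3 in mavrilimumab libraries. These do not overlap (0.97 ± 0.32, adjusted p = 0.966), and how many of all genes do not was not counted. Eomes had 53.8 and 39.8 against 162 and 53.0, which overlap (1.26 ± 0.56; adjusted p = 0.966). With mixed-lineage cells removed, which left 0, 442, 139 and 34 cells, Eomes was called at 2.13 (adjusted p = 0.0349). In Pdcd1+ CD8 T cells Eomes had 24.3 in vehicle 2 against 146 and 38.7 (1.93 ± 0.97; adjusted p = 0.490), and Tbx21 differed by 0.72 ± 0.32. Without a filter on low counts Eomes was called in Pdcd1+ and Pdcd1- CD8 T cells (1.99 and 1.33; adjusted p = 0.00137 and 0.00203), Tox in the former (1.41; adjusted p = 0.0372) and Tbx21 in the latter (1.05; adjusted p = 0.0143). In NK cells Eomes stood at 72.8 in vehicle 2 against 189.5 and 135 (1.07 ± 0.41; adjusted p = 0.0825), and Tbx21 at 135 against 255 and 242 (0.88 ± 0.40; adjusted p = 0.208). In other CD4 T cells Nr4a1 had the lowest unadjusted p of the factors (0.84 ± 0.41), and Tbx21 differed by 0.32 ± 0.63.

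In Treg cells Tbx21 was at 0 of 101977 UMIs in vehicle 2, which allows up to 29.4 CPM, beside 50.2 and 34.5 in mavrilimumab libraries, and no fold change is given, although without a filter on low counts it was called there (adjusted p = 0.0273). Nr4a1 was lower in mavrilimumab Treg cells (-1.32 ± 0.51; adjusted p = 0.404), again against the 10 UMIs of vehicle 2. Tox differed by 1.35 ± 0.85 in Pdcd1+ CD8 T cells, where mavrilimumab 1 was at 885 and mavrilimumab 2 at 235, beside 221 in vehicle 2, and by -0.40 to 0.27 in the other gates. Tcf7 differed by 0.43 ± 0.33, -0.76 ± 0.64, 1.02 ± 1.02, -0.16 ± 0.47 and 0.69 ± 0.49 in Pdcd1+ CD8, Pdcd1- CD8, Treg, other CD4 and NK cells.

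Id2 differed by at most 0.62 ± 0.52, in Pdcd1- CD8 T cells, and Prdm1 by 0.91 ± 0.78 in other CD4 T cells, the largest of its 5 values. Nr4a2 differed by 0.52 ± 0.29, 0.09 ± 0.51, -0.35 ± 0.66, -0.73 ± 0.74 and 0.62 ± 0.50 in the gates as ordered for Tcf7. Nr4a1 ran from the -1.32 of Treg cells to 1.26 ± 1.23 in NK cells, Nr4a3 from -0.34 ± 0.72 in other CD4 to 1.49 ± 0.96 in NK cells, and Tox2 from 0.08 ± 1.66 in Pdcd1- to 2.19 ± 2.84 in Pdcd1+ CD8 T cells. Nr4a3 in Treg, Eomes in other CD4 and Tox2 in NK cells were too low to be tested. Of the surrounding lists, called genes appeared in NK cells alone: Zeb1 and Fos were lower and Xcl1 and Mki67 higher, 4 of 57 list genes tested there (7.02%), a share below the 10.6% of all genes.

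Whether the labelled treatment difference itself differed between Pdcd1+ and Pdcd1- CD8 T cells was tested by an interaction term, on vehicle 2 and both mavrilimumab libraries where both gates had 20 cells. None of the 10 factors was called, beside 0.416% of all genes. The interaction was 1.72 ± 0.65 for Nr4a3, 0.69 ± 0.27 for Tox, 0.84 ± 0.34 for Nr4a2 and 2.37 ± 0.97 for Tox2, the 4 factors with an unadjusted p under 0.05 among 918 such genes (adjusted p = 0.674, 0.715, 0.737 and 0.743), and without a filter on low counts Tox was called (0.71; adjusted p = 0.0121). It was 1.45 ± 0.73 for Nr4a1, 0.41 ± 0.29 for Eomes and -0.15 to 0.04 for Prdm1, Tcf7, Tbx21 and Id2. For Tox the Pdcd1+ to Pdcd1- pairs were 221 and 165 in vehicle 2, 885 and 316 in mavrilimumab 1 and 235 and 141 in mavrilimumab 2. Of the lists, Mki67 and Top2a of the 6 cycling genes were called higher and Gzma lower. The vehicle side of this test is 1 library, and beside the 60 genes called in all, DESeq2 called 1 and a fit with RNA of empty droplets subtracted called 0.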

How the data were processed

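Droplet 5′ single-cell expression was measured in 4 libraries, and TCR sequences in libraries beside them, of which vehicle 2 was not analysed here. The authors deposited raw UMI counts per gene and barcode, unnormalized. File headers name Cell Ranger 9.0.1, whereas the submitters' processing notes name Cell Ranger 7 and 7.1.0, Scanpy 1.8.2 and mm10. How the counts of overlapping or near-identical genes were split is not given in the sources used here.

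Kept barcodes had 1000 UMIs or more, between 200 and 6000 detected genes and a mitochondrial share of 10% or less. Cells were gated by UMIs (at least 2 over Cd8a and Cd8b1, at least 2 over Ncr1 and Klrb1c, and at least 1 of each other gate gene), and 85 cells that met 2 rules stayed in both. No doublet caller was run. An alternative removed cells with at least 2 UMIs over a marker list (microglia, monocyte, neutrophil, B cell or neural). It also removed CD8 T cells with Cd4. These are the cells said to be mixed-lineage or to hold RNA of other lineages. The source of that RNA was not tested, and the cut was not scaled to depth. The 5 monocyte markers summed to 618 to 1957 CPM in Pdcd1- CD8 and 158 to 494 in other CD4 sums. Counts were summed per library and gate, with 20 cells required, and tested with edgeR 4.0.16 (TMM scaling, its default filter on low counts, quasi-likelihood test, Benjamini-Hochberg over all genes tested, called at an adjusted p under 0.05), with library as a block in comparisons within libraries. The gate comparisons came from 1 fit of 17 sums. Alternatives were DESeq2 1.42.0, other scalings, filters, gates and subtraction of RNA from droplets of at most 100 UMIs. TCR barcodes were joined to the expression library that shared most of them. Libraries held 24354457 to 148657643 UMIs. Intervals cover counting error only. Each SE is the size of the log2 change divided by the square root of the quasi-likelihood F statistic. It is not a separate estimate of the fit. No column of another sample was used. The fits were tested on simulated data.

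All 10 factors are named in every comparison, and of each gene list up to 4 called genes with the smallest p. Members and lists were chosen with earlier results of these data known. Gate genes were not counted as calls. How many of all genes did not overlap between sides, or held a direction in every library, was not counted in any comparison. The values of 1 list gene are not reported here.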

Additional observations from a re-analysis of the deposited data

Results flagged for a closer look

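Outliers within groups could not be sought, with 2 libraries per treatment. In other CD4 T cells against Pdcd1- CD8 T cells, the log2 ratios of 2 factors differed in sign between vehicle and mavrilimumab libraries. Each sign held in both libraries of a treatment. How many of all genes show this pattern was not counted, and with 2 libraries per treatment it can arise by chance. These differences were not tested, and the treatments are as labelled.

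For Nr4a2, the TCR-induced nuclear receptor, the log2 ratio of CD4 to CD8 T cells was 0.12 and 0.40 in vehicle and -0.34 and -1.41 in mavrilimumab libraries, a difference of means of -1.14. The vehicle CD4 levels rest on 10 and 11 UMIs and the vehicle Pdcd1- CD8 levels on 7 and 137. The sign of the vehicle ratios is therefore uncertain.

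For Prdm1 (Blimp-1) the ratios were -0.03 and -0.17 in vehicle and 1.12 and 0.71 in mavrilimumab libraries, a difference of 1.01. In the vehicle libraries the CD4 sums held 18 and 2 Prdm1 UMIs and the Pdcd1- CD8 sums 14 and 37. The sign of the vehicle ratios is uncertain here too.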

How the results depend on the processing

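No called factor turned its direction under any alternative run. Across the 12 comparisons, single factors kept direction and side of the threshold in 1247 recomputations, lost the call in 60, gained one in 44 and, where not called either time, changed sign in 87. Counts of factors called, beside 0 (Pdcd1+ CD8), 3 (Treg), 5 (NK), 3 (other CD4), 3 (Tcf7 split) and 1 (clones), moved as follows. Without a filter on low counts they were 3 for Pdcd1+ CD8, 6 for other CD4, 5 for the Tcf7 split and 5 for clones, and by treatment 2 in Pdcd1+ CD8, 2 in Pdcd1- CD8, 1 in Treg, 1 (Tox2, not tested with the filter) in NK and 1 for the interaction. With no library block they were 0, 1, 0, 0 and 0 for Treg, NK, other CD4, the Tcf7 split and clones. DESeq2 gave 3 for NK and 0 for the Tcf7 split and clones. Subtracting RNA of empty droplets gave 2 for NK (Tcf7, Id2 and Prdm1 lost), 1 for the Tcf7 split and 0 for clones, and left 3 for Treg with Tcf7 lost and Eomes gained, a comparison whose sides lost unequal shares in vehicle 2 (34.6 and 0%). Removing cells with RNA of other lineages gave 2 for Pdcd1+ CD8, 1 for Treg and 1 (Eomes) for treatment in Pdcd1- CD8. Gating on thinned cells gave 1 (Nr4a2) for Pdcd1+ CD8, 5 for other CD4 and 0 for clones, and a mitochondrial limit of 5% gave 5 and 0 for the last 2. Fitting only the 2 gates compared gave 5 for other CD4, and Pdcd1 of at least 2 UMIs gave 0 for the Tcf7 split. Clones fell to 0 with RLE scaling, a minimum of 2000 UMIs or clones of at least 2 cells, and rose to 2 with cells of 2 gates left out, which also gave 4 for Treg with Eomes gained, a choice added after seeing the data. The causes were not tested.

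Leaving out each library gave 1 to 3 factors for Treg, 1 to 5 for NK, 2 to 4 for other CD4 and 3 for the Tcf7 split, where the 3 were not the same factors without mavrilimumab 2 (Tox and Prdm1 gained, Eomes lost, Nr4a3 not tested), and 0 for Pdcd1+ CD8 and for treatment in Pdcd1- CD8 and other CD4. Of 14 calls in those comparisons, 4 were made in every such fit, and Nr4a3 was not tested in one. All genes called ranged over the alternatives from 0 to 193 (28 as reported) for Pdcd1+ CD8, 6 to 694 (394) for Treg, 398 to 2138 (1840) for NK, 85 to 1628 (1166) for other CD4, 0 to 415 (171) for the Tcf7 split and 0 to 742 (51) for clones. By treatment they ranged from 0 to 1695 (0), 0 to 1494 (0), 0 to 773 (60), 0 to 372 (0) and 160 to 1894 (1231) in the gates as ordered above, and 0 to 274 (60) for the interaction. Of genes called in Treg cells, 206 were higher and 188 lower with TMM, and 235 and 135 with RLE scaling. The same split was 7 and 21, then 11 and 20, for Pdcd1+ CD8, and 22 and 29, then 3 and 8, for clones.

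A fit of treatment with a replicate block was possible only in Pdcd1- CD8 and other CD4 T cells, where it called 0 factors in each, beside 0 and 1 genes. The labels share only a number: deviations of same-numbered libraries correlated at 0.285 and 0.178. Depth limits each factor but Tox and Id2 in at least 1 lymphocyte sum, where 0 to 10 UMIs were counted.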
